A study of Mus musculus with 6 samples.

Results

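The RGS genes Rgs1, Rgs2, Rgs3, Rgs4, Rgs5, Rgs10, Rgs12, Rgs16, Rgs18 and Rgs19 were examined in cultured bone marrow mesenchymal stem cells (BMSCs) of mice with and without Glrx2. They were taken by gene symbol from a table of 22984 genes, and all 10 were present. They were chosen by their FPKM difference between the genotypes, with that difference already known, so for these 10 genes it is a description and carries no test. BMSCs stick to plastic when marrow is cultured and can turn into osteoblasts, adipocytes or chondrocytes. The product of Glrx2, Grx2, is a small mitochondrial redox enzyme that uses glutathione to act on protein thiols. Messenger RNA of wild-type cells (Grx2+/+, 3 libraries) was compared with that of knockout cells (Grx2-/-, 3 libraries), with no treatment named for either genotype. The design text calls the cells O-BMSCs without expanding the prefix, and the labels name no allele, strain, age or sex and do not record whether each replicate is its own animal or culture. Any p-value below therefore measures only the spread between these libraries, which may be technical.

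RGS proteins shorten signals from G protein-coupled receptors. A receptor loads the alpha subunit of a heterotrimeric G protein with GTP, and the RGS domain speeds the hydrolysis of that GTP, so that the alpha and beta-gamma subunits reassemble and signalling stops. The R4 subfamily (here Rgs1, Rgs2, Rgs3, Rgs4, Rgs5, Rgs16 and Rgs18) consists largely of small proteins with little beyond the RGS domain, the R12 subfamily includes the small Rgs10 and the large multidomain Rgs12, and the RZ subfamily includes Rgs19, also called GAIP. Most act on alpha subunits of the Gi/o and Gq classes, while Rgs2 is known for its preference for Gq. In osteoblast-lineage cells the parathyroid hormone receptor signals mainly through Gs and also through Gq.

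Values are FPKM, read numbers scaled to gene length and library depth, as the authors deposited them. Depth, worked back from the values, was 40797879 to 41794919 reads per library. Glrx2 itself was at 3.57, 3.74 and 3.54 FPKM in Grx2+/+ replicates 1 to 3 and at 0.00461, 0 and 0 FPKM in Grx2-/- replicates 1 to 3 (756, 800 and 761 reads against 1, 0 and 0). The 12 listed stromal markers, among them Pdgfra, Pdgfrb and Col1a1, were all above a mean of 1 FPKM, although Lepr went from 3.83 to 0.0351 FPKM. Both groups also held transcripts of macrophage markers. The Grx2+/+ libraries held far more of the neutrophil markers and of the summed endothelial markers, though Vwf, Erg and Tek were found in both groups. The RGS values may be those of a mixed culture, which was not tested. In such bulk samples, fewer cells of a type and less RNA per cell cannot be told apart.

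Promoter sequence was matched for 8 of the 10 genes, all but Rgs1 and Rgs18, in a RefSeq table of build GRCm38.p6, which gave 12 start sites. It is an earlier build than the GRCm39 of the deposited values, so the coordinates below belong to GRCm38.p6 only. The 250 bases before the start are shown for the 5 matched genes with the widest ratios between genotypes, Rgs2 and Rgs10 (higher in Grx2-/-) and Rgs3, Rgs5 and Rgs16 (lower), each 5′ to 3′ along the gene, with CG dinucleotides in capitals.
Rgs2, chr1:144004150-144004399 (- strand): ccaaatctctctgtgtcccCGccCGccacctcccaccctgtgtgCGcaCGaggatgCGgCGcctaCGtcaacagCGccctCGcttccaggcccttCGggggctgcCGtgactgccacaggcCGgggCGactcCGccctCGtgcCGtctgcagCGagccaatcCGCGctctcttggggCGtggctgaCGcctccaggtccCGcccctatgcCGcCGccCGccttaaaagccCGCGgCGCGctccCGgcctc
Rgs10, chr7:128418173-128418422 (- strand): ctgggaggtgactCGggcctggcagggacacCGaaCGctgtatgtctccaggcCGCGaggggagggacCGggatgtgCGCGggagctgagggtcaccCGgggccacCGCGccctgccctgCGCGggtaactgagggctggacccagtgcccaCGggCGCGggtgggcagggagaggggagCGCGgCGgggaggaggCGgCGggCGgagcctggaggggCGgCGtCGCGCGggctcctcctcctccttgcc
Rgs3, chr4:62619422-62619671 (+ strand): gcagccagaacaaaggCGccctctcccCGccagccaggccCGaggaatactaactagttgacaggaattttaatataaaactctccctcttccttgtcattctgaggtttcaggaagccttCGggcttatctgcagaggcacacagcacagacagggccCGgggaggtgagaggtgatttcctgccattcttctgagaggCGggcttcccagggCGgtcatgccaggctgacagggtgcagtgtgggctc
Rgs5, chr1:169655251-169655500 (+ strand): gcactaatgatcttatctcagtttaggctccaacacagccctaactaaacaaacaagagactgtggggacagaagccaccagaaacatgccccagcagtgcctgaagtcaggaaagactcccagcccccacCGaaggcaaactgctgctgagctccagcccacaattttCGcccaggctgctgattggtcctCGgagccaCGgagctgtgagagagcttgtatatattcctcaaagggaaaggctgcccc
Rgs16, chr1:153740103-153740352 (+ strand): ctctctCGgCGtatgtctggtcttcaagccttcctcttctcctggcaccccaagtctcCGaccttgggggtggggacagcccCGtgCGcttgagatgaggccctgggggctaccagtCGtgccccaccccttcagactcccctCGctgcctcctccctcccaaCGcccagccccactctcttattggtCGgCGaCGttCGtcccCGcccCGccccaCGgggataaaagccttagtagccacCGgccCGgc
Of 32851 promoters of the same length, the median held 6 CG dinucleotides. The Rgs2 stretch held 30 and the Rgs10 stretch 27, counts reached by 5.94% and 8.56% of all promoters. Rgs16 held 17, this start of Rgs3 held 7 and Rgs5 held 4, so the genes that were lower in Grx2-/- cells included both CG-rich and CG-poor starts. The table lists a pair of starts for Rgs3, and the deposited value of the gene sums over all its transcripts. A search on both strands for the cyclic AMP response element TGACGTCA found it in 0 of the 12 promoters (1.55% of all promoters). The antioxidant response core TGACNNNGC was found in 1, at an Rgs12 start (10.2% of all promoters), and the AP-1 site TGANTCA in 1, at the other Rgs12 start (6.75%). TGANTCA and TGACNNNGC share their opening letters and can overlap. These are matches of letters in a window, not sites shown to be used.

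In Grx2+/+ cells the order of levels by mean FPKM was Rgs19 (17.3), Rgs4 (15.2), Rgs10 (10.7), Rgs16 (10.2), Rgs3 (6.58), Rgs1 (5.40), Rgs2 (4.85), Rgs12 (4.30), Rgs5 (1.33) and Rgs18 (1.17). Of neighbours in that order, Rgs10 and Rgs16, Rgs1 and Rgs2, Rgs2 and Rgs12, and Rgs5 and Rgs18 overlapped between libraries. In Grx2-/- cells the order was Rgs10 (21.3), Rgs19 (20.6), Rgs4 (12.5), Rgs2 (12.4), Rgs1 (6.82), Rgs16 (5.95), Rgs12 (3.60), Rgs3 (2.07), Rgs18 (2.04) and Rgs5 (0.242). There Rgs10 and Rgs19, Rgs4 and Rgs2, Rgs1 and Rgs16, and Rgs3 and Rgs18 overlapped. Rgs2 thus stood higher in the order of Grx2-/- cells and Rgs3 lower. The summed FPKM of the 10 genes was 75.7 to 78.0 in Grx2+/+ and 85.4 to 88.7 in Grx2-/- libraries. Rgs10 made up 13.8% of that sum in Grx2+/+ and 24.3% in Grx2-/- cells, Rgs2 6.31% and 14.2%, and Rgs3 8.55% and 2.37%. FPKM divides by the length of the whole gene model, which is 11820 bases for Rgs3 and 10987 for Rgs12, so a short transcript of either would be understated beside the other genes.

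Rgs2, Rgs1 and Rgs18 belong to a cluster of R4 genes beside Glrx2 on chromosome 1, and all were higher in Grx2-/- cells. Rgs2, an inhibitor of Gq signalling that many hormones induce, was at 4.39, 5.24 and 4.92 FPKM in Grx2+/+ replicates 1 to 3 and at 13.9, 11.4 and 11.9 FPKM in Grx2-/- replicates 1 to 3. Every Grx2-/- library stood above every Grx2+/+ library, by 2.56-fold between means, a log2 fold change of 1.20 ± 0.083 (SE, on log2(FPKM + 1), as for all log2 values here unless stated, a scale that understates the change of low genes). Rgs1, first known from activated B cells and a brake on chemokine receptors, was at 6.01, 4.94 and 5.24 FPKM in Grx2+/+ and 7.50, 6.17 and 6.79 FPKM in Grx2-/- cells. The highest Grx2+/+ library and the lowest Grx2-/- library of Rgs1 lay close together, and the log2 fold change was 0.29 ± 0.083. Rgs18, a gene of platelets and other blood cells, was at 0.897, 1.38 and 1.24 FPKM in Grx2+/+ and 1.57, 2.27 and 2.28 FPKM in Grx2-/- cells. Replicate 1 was the lowest library of Rgs18 in both groups, which rested on 74, 115 and 104 reads in Grx2+/+ and 133, 189 and 189 reads in Grx2-/- libraries. Its means differed by 1.74-fold, and its log2 fold change of 0.48 ± 0.12 became 0.75 with a pseudocount of 0.1 and 0.80 on the recovered reads by voom.

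The other R4 genes, Rgs3, Rgs4, Rgs5 and Rgs16, were all lower in Grx2-/- cells. Rgs3, a regulator of Gi- and Gq-coupled signals with long and short forms, was at 6.92, 6.12 and 6.70 FPKM in Grx2+/+ and 1.79, 2.27 and 2.16 FPKM in Grx2-/- cells. The groups were far apart, with a 3.18-fold lower mean and a log2 fold change of -1.31 ± 0.075. Rgs5, known as a marker of pericytes, was at 1.27, 1.20 and 1.52 FPKM in Grx2+/+ and 0.221, 0.230 and 0.274 FPKM in Grx2-/- cells, the widest ratio of the 10 genes. It rested on 236, 224 and 287 reads against 42, 43 and 51, a ratio of reads per depth of 5.52 for which the exact 95% bounds, from counting error alone, were 4.59 and 6.67. Rgs5 was the 1 gene of the set with a mean under 1 FPKM over the 6 libraries and so was not in the fit.

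Rgs16, which like Rgs4 and Rgs5 is known to be degraded through its amino-terminal cysteine, was at 9.24, 10.6 and 10.7 FPKM in Grx2+/+ and 5.23, 6.46 and 6.15 FPKM in Grx2-/- cells. Replicate 1 was the lowest in both groups, and the log2 fold change was -0.69 ± 0.082. Rgs4, a regulator of Gi- and Gq-coupled receptors best known in brain and heart, was at 16.0, 14.02 and 15.5 FPKM in Grx2+/+ and 11.9, 12.6 and 12.9 FPKM in Grx2-/- cells. The groups did not overlap but lay near each other, with a 1.22-fold lower mean in Grx2-/- cells and a log2 fold change of -0.26 ± 0.057.

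In the R12 subfamily the genotypes differed in opposite directions. Rgs10, a small RGS protein abundant in microglia and other myeloid cells, was at 10.8, 11.1 and 10.1 FPKM in Grx2+/+ and 19.9, 22.7 and 21.3 FPKM in Grx2-/- cells. The lowest Grx2-/- library was well above the highest Grx2+/+ library, with means 2.00-fold apart and a log2 fold change of 0.93 ± 0.058. Rgs12, a large scaffold with PDZ and GoLoco domains, was at 4.09, 4.48 and 4.33 FPKM in Grx2+/+ and 3.74, 3.77 and 3.28 FPKM in Grx2-/- cells. Its groups were close, with a log2 fold change of -0.21 ± 0.063. Rgs19 of the RZ subfamily, which binds Gi alpha subunits and is anchored by a cysteine string, was at 17.6, 16.6 and 17.7 FPKM in Grx2+/+ and 19.7, 20.5 and 21.6 FPKM in Grx2-/- cells. All 3 Grx2-/- libraries were higher, by 1.19-fold between means, with a log2 fold change of 0.24 ± 0.047.

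**Figure D1:**
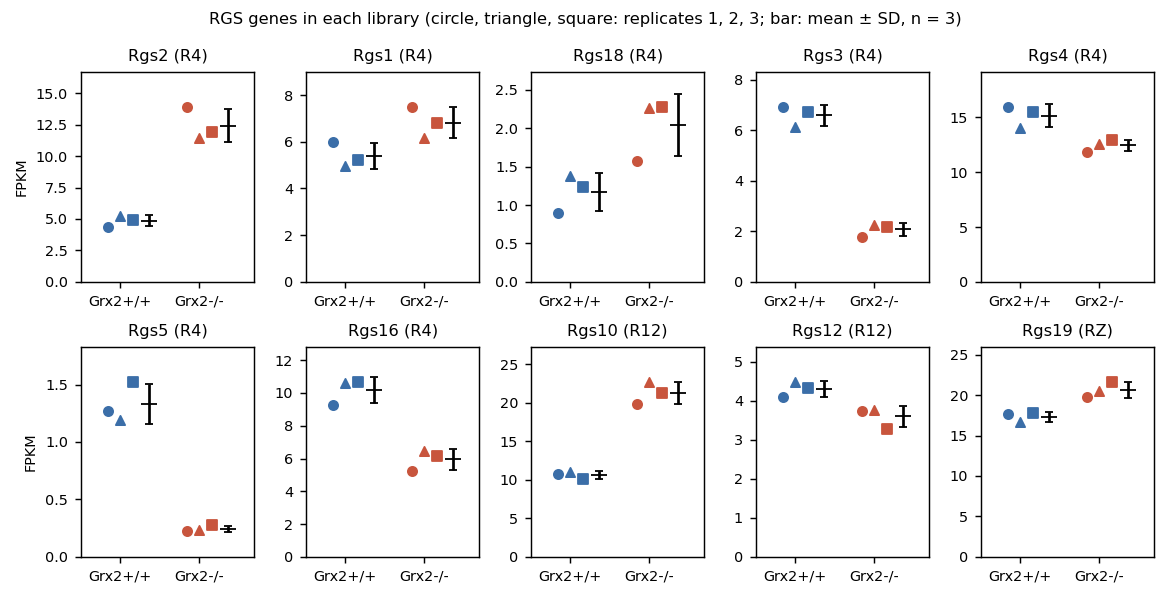
FPKM of the 10 RGS genes in each library, 1 panel per gene with its subfamily, each vertical axis starting at 0. Points are libraries, with replicates 1, 2 and 3 as circles, triangles and squares, and bars are mean ± SD (n = 3 per genotype). In each panel the genotypes do not overlap, most widely for Rgs5, Rgs3 and Rgs2 and least for Rgs1.

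Of the 9 genes in the fit, 5 were past the threshold toward higher values in Grx2-/- cells (Rgs1, Rgs2, Rgs10, Rgs18 and Rgs19) and 4 toward lower values (Rgs3, Rgs4, Rgs12 and Rgs16), by limma across all tested genes with a Benjamini-Hochberg adjusted p under 0.05. The same threshold was passed by 67.4% of the 11083 tested genes, 42.7% higher and 24.6% lower. This balance depends on the scaling, since 4737 genes were higher and 2728 lower as deposited, 3786 and 3575 with median-of-ratios scaling, and 3413 and 3945 with quantile normalization. The groups did not overlap for any of the 10 RGS genes, and for 73.1% of all tested genes (45.7% higher, 27.4% lower). Since the genes were chosen with this difference known, nothing is read from these counts. The median log2 fold change of all tested genes was 0.085. Relative to it Rgs2 was at 1.11, Rgs10 at 0.85, Rgs18 at 0.40, Rgs1 at 0.20 and Rgs19 at 0.15, and Rgs3 at -1.39, Rgs16 at -0.77, Rgs4 at -0.35 and Rgs12 at -0.29. Rgs1 was not past the threshold with median-of-ratios scaling (log2 fold change 0.21), with quantile normalization (0.18), without Grx2+/+ replicate 3 (0.27) or without Grx2+/+ replicate 2 and Grx2-/- replicate 1 together (0.18). Rgs12 was not without Grx2+/+ replicate 2 (-0.18) or 3 (-0.20) or Grx2-/- replicate 3 (-0.16), and Rgs19 was not with quantile normalization (0.11).

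**Figure D2:**
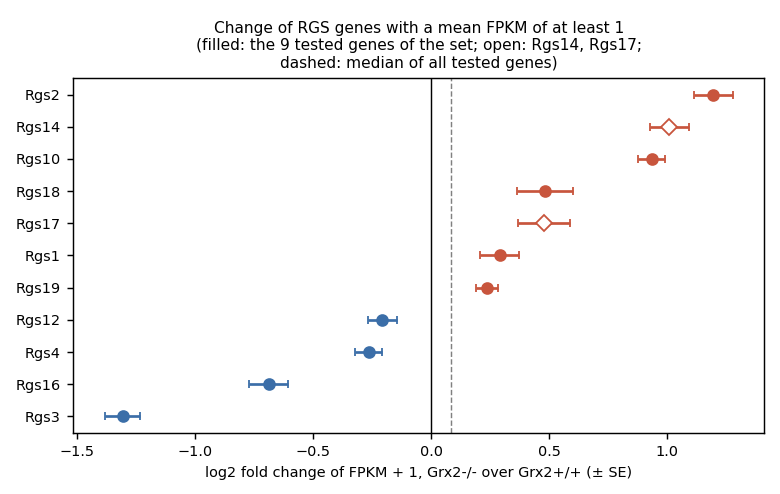
Log2 fold change of FPKM + 1, Grx2-/- over Grx2+/+, with its standard error, for the 9 tested genes of the set (filled) and for Rgs14 and Rgs17 (open), ordered by size. The dashed line is the median of all tested genes at 0.085. Rgs2 lies furthest to the right at 1.20 and Rgs3 furthest to the left at -1.31.

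Replicates of these genes varied more than counting alone gives, with 1 exception. The coefficient of variation of FPKM in Grx2+/+ cells ran from 3.47% for Rgs19, where counting alone gives 2.28%, to 21.2% for Rgs18, where it gives 10.1%. In Grx2-/- cells it ran from 4.20% for Rgs4 (counting 2.57%) to 19.8% for Rgs18 (counting 7.66%). The exception was Rgs5 in Grx2-/- cells, at 11.6% against 14.9% from counting. Rgs3 varied by 6.25% in Grx2+/+ and 12.1% in Grx2-/- cells, and Rgs2 by 8.87% and 10.6%.

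Rgs1, Rgs10 and Rgs18 are known from blood cells, whose markers moved in different directions. Among all tested genes, 42.7% were higher and 24.6% lower, with a median log2 fold change of 0.0855. Of the 12 listed macrophage markers, all of them tested, 11 were higher in Grx2-/- cells, 0 lower and 1 (C1qa) not past the threshold, with a median log2 fold change of 0.86. Their summed level was 1544 to 1666 FPKM in Grx2+/+ and 2523 to 3427 FPKM in Grx2-/- libraries, and none was at 0 in either group. Ptprc, the pan-leukocyte protein CD45, was at 4.30, 5.80 and 4.29 FPKM in Grx2+/+ and 7.59, 12.9 and 11.5 FPKM in Grx2-/- cells. Grx2-/- replicate 1 was thus the lowest of its group for Ptprc. It was also the lowest for Rgs3, Rgs4, Rgs5, Rgs10, Rgs16, Rgs18 and Rgs19, whatever their direction between genotypes. It was the highest for Rgs1 and Rgs2 and neither for Rgs12. Relative to the Grx2+/+ mean, Rgs18 was at 1.34 to 1.94, Rgs10 at 1.87 to 2.13, Rgs1 at 1.14 to 1.39 and Rgs19 at 1.14 to 1.25 in Grx2-/- libraries, where Csf1r was at 3.50 to 4.49 and Ptprc at 1.58 to 2.69. The part of these cells in the RGS values was not tested.

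**Figure D3:**
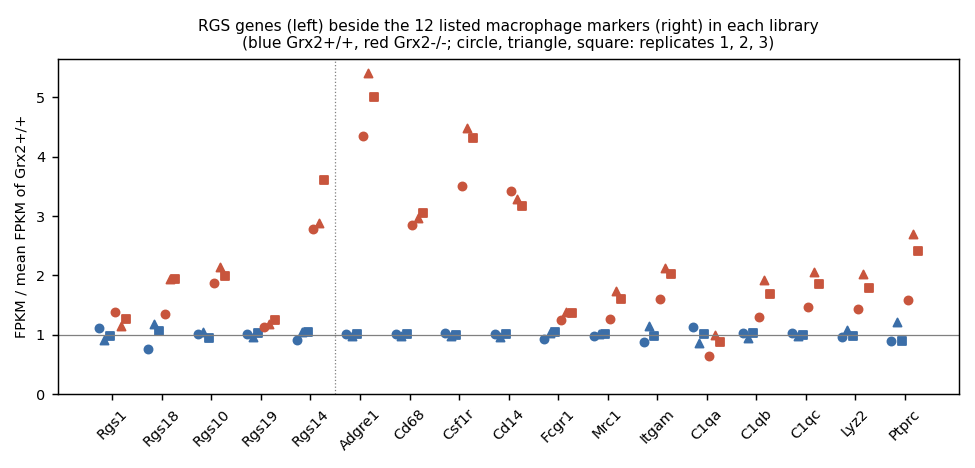
FPKM divided by the Grx2+/+ mean of the same gene, in each library, for Rgs1, Rgs18, Rgs10, Rgs19 and Rgs14 (left of the dotted line) and the 12 listed macrophage markers (right). Blue points are Grx2+/+ and red points Grx2-/- libraries, with replicates 1, 2 and 3 as circles, triangles and squares. Adgre1 reaches 4.34 to 5.41 in Grx2-/- libraries, while Rgs1 reaches 1.14 to 1.39 and C1qa lies at 0.638 to 0.987. The RGS genes drawn were picked and are all higher in Grx2-/- cells, while Rgs2 and the RGS genes that were lower are not drawn.

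Markers of other cells moved otherwise. Of 10 neutrophil markers, 8 were tested and all 8 fell, where 24.6% of all tested genes were lower. All of the 8 but S100a8 and Mmp8 entered the fit only through their Grx2+/+ values. The summed level of the 10 was 886 to 2573 FPKM in Grx2+/+ and 3.17 to 3.71 FPKM in Grx2-/- libraries, with Ly6g and Retnlg at 0 in Grx2-/-. Of 8 platelet and megakaryocyte markers, 3 were tested: Pf4 was higher, with overlapping groups, and Itga2b and Ppbp lower. Itga2b entered the fit only through its Grx2+/+ values. The untested Gp1ba, Gp1bb, Gp5, Gp9 and Gp6 were all lower without overlap, with Gp9 and Gp6 at 0 in Grx2-/-. The markers summed to 123 to 162 FPKM in Grx2+/+ and 147 to 182 FPKM in Grx2-/- libraries. Most of that sum was Pf4, with means of 116 FPKM in Grx2+/+ and 153 FPKM in Grx2-/- cells. Of 8 B and T cell markers, 7 were in the table and 0 were tested; they summed to 0.798 to 1.41 FPKM in Grx2+/+ and 0.203 to 0.620 FPKM in Grx2-/- libraries. Ms4a1 was at 0 in every Grx2-/- library, Cd3d and Cd3g were at 0 in all libraries but Grx2+/+ replicate 2, and Cd2 was at 0 in every Grx2+/+ library and at 0, 0.0425 and 0.0213 FPKM in Grx2-/- replicates 1 to 3.

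Pericyte and vessel markers, listed for Rgs5, did not share a direction. Of 9 mural cell markers, 8 were in the table and 4 were tested: Mcam (13.6 to 1.09 FPKM) and Notch3 (4.39 to 3.00 FPKM) fell, Ndufa4l2 (13.1 to 22.4 FPKM) rose and Cspg4 was at 17.3 and 18.3 FPKM. The untested Des (1.75 to 0.137 FPKM) and Abcc9 (0.419 to 0.325 FPKM) were lower without overlap, and Kcnj8 and Vtn overlapped between groups. The mural markers summed to 50.1 to 51.7 FPKM in Grx2+/+ and 44.1 to 47.0 FPKM in Grx2-/- libraries, with none at 0 in a whole group. Endothelial markers had 8 members, of which 5 were tested, with 4 that fell (Pecam1, Cdh5, Emcn and Kdr) and 1 not past the threshold (Vwf). Each of the 4 entered the fit only through its Grx2+/+ values. Of the untested, Tie1 was at 0 in Grx2-/- cells and Erg overlapped between groups. Tek was at 0.265 FPKM in Grx2+/+ and 0.609 FPKM in Grx2-/- cells, without overlap. The endothelial markers summed to 19.0 to 22.6 FPKM in Grx2+/+ and 3.75 to 3.89 FPKM in Grx2-/- libraries. Of 7 smooth muscle markers, 6 were tested and all 6 fell (sum 2663 to 2918 and 899 to 1453 FPKM), and of 8 osteoblast markers, 6 were tested and all 6 fell (sum 1354 to 1521 and 616 to 652 FPKM). Ibsp and Bglap2 entered the fit only through their Grx2+/+ values. The untested Myh11, Bglap and Dmp1 overlapped between groups. None of the 12 stromal markers was untested: 5 rose, 6 fell and 1 was not past the threshold (sum 6963 to 7965 and 4553 to 5264 FPKM). Beside these counts, 42.7% of all tested genes were higher and 24.6% lower. The part of vessel, muscle and bone cells in the values of Rgs3, Rgs4, Rgs5 and Rgs16 was not tested.

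Of 12 RGS genes outside the set, 10 were in the table, and a pair, Rgs14 and Rgs17, reached a mean of 1 FPKM. Their Grx2+/+ means were 0.951 and 0.992 FPKM, so both entered the fit only through their Grx2-/- values, and their count is no evidence of a direction. Rgs14, an R12 protein with Ras-binding and GoLoco domains, was at 0.873, 0.993 and 0.988 FPKM in Grx2+/+ and 2.65, 2.73 and 3.43 FPKM in Grx2-/- cells, with a log2 fold change of 1.01 ± 0.084 (limma, adjusted p = 1.74e-05). Rgs17, an RZ protein, was at 0.801, 1.18 and 0.991 FPKM in Grx2+/+ and 1.41, 2.15 and 1.78 FPKM in Grx2-/- cells, with a log2 fold change of 0.48 ± 0.11 (limma, adjusted p = 0.00558). The groups did not overlap for either gene, as for 73.1% of all tested genes. With a pseudocount of 0.1 their log2 fold changes were 1.53 and 0.78.

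The remaining RGS genes were too low for the fit. Rgs11 had 48, 39 and 53 reads in Grx2+/+ and 57, 62 and 43 reads in Grx2-/- libraries, with overlapping groups. Rgs8 had 1, 3 and 1 reads in Grx2+/+ and 10, 11 and 13 reads in Grx2-/- libraries. Rgs6, Rgs7, Rgs9, Rgs20, Rgs22 and Rgsl1 had at most 9 reads in any library, and Rgs6 had 0 in each Grx2+/+ library, which allows up to 3 reads. Rgs7bp, the membrane anchor of the R7 subfamily to which Rgs6, Rgs7, Rgs9 and Rgs11 belong, had 6, 10 and 15 reads in Grx2+/+ and 28, 53 and 42 reads in Grx2-/- libraries. Gnb5, the beta subunit that R7 proteins need for stability, was at 5.93 ± 0.299 FPKM (SD, n = 3) in Grx2+/+ and 5.31 ± 0.141 in Grx2-/- cells (limma, adjusted p = 0.0482), a call lost without any 1 of 5 of the 6 libraries and with the replicate number as a block (adjusted p = 0.0551). It was the 1 tested gene of 5 listed R7 partners.

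The alpha subunits on which RGS proteins act differed in both directions, as did all tested genes (42.7% higher and 24.6% lower). Of 8 Gi/o subunits, 4 were tested: Gnai2 rose, Gnai1 and Gnao1 fell and Gnai3 was not past the threshold (median log2 fold change -0.54, against 0.085 for all tested genes). Gnai1 was at 16.1, 15.6 and 15.2 FPKM in Grx2+/+ and 4.72, 3.68 and 3.87 FPKM in Grx2-/- cells (-1.71 ± 0.076, limma adjusted p = 5.07e-07). Gnao1, best known from neurons, went from 3.57 to 1.24 FPKM (-1.03 ± 0.070). Gnai2, by far the most abundant of the class, was at 259 ± 1.28 FPKM in Grx2+/+ and 307 ± 14.3 in Grx2-/- cells (SD, n = 3), so the summed Gi/o level was 342 to 350 FPKM and 361 to 388 FPKM.

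Of 4 Gq subunits, 3 were tested. Gna15, an alpha subunit of blood cells, rose from 1.10 to 2.70 FPKM (0.82 ± 0.057), Gnaq rose from 13.6 to 17.1 FPKM (0.31 ± 0.047) and Gna11 fell from 35.6 to 32.2 FPKM (-0.14 ± 0.033). Of 4 Gs and G12 class subunits, 3 were tested: Gnas fell from 143 to 129 FPKM (-0.15 ± 0.030), Gna13 was past the threshold toward higher values (0.14 ± 0.039, but -0.0029 with quantile normalization) and Gna12 was not past it. Of 16 beta and gamma subunits, 10 were tested, of which 4 rose, 1 fell and 5 were not past the threshold (median 0.056). Gng12 rose from 26.3 to 53.6 FPKM (1.00 ± 0.040), Gngt2 from 3.88 to 8.93 FPKM (1.04 ± 0.10) and Gng2 from 5.43 to 7.65 FPKM, while Gng11 fell from 25.7 to 15.7 FPKM (-0.68 ± 0.069). Under either median-of-ratios or quantile scaling, 4 of these subunits were past the threshold toward lower values.

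Receptor kinases and arrestins, which uncouple receptors from G proteins ahead of the step at which RGS proteins act, were listed beside them. Of 10 listed symbols, 8 were in the table and 5 were tested: 4 rose, 0 fell and Grk6 was not past the threshold, with a median of 0.92, where 42.7% of all tested genes were higher. The untested Grk1 and Grk4 overlapped between groups. Grk5 was at 1.66 ± 0.116 FPKM in Grx2+/+ and 5.11 ± 0.118 in Grx2-/- cells (SD, n = 3; 1.20 ± 0.056), Arrb1 at 5.99 and 13.01 FPKM (1.00 ± 0.067), Arrb2 at 17.1 and 33.3 FPKM (0.92 ± 0.10) and Grk2 at 26.7 and 37.2 FPKM (0.47 ± 0.051). Under median-of-ratios or quantile scaling, 1 gene of the list was past the threshold toward lower values.

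Of 7 genes with GoLoco motifs or exchange activity on alpha subunits, 6 were tested, with 2 that rose, 2 that fell and 2 not past the threshold (median 0.076). That is 66.7% past the threshold, near the 67.4% of all tested genes (42.7% higher, 24.6% lower). Gpsm2, which orients the mitotic spindle, rose from 7.09 to 13.4 FPKM (0.83 ± 0.064) and Gpsm3, a blood cell gene, from 7.85 to 14.7 FPKM (0.82 ± 0.094), while Ric8a, a chaperone of alpha subunits, fell from 28.5 to 22.4 FPKM (-0.34 ± 0.033) and Gpsm1 from 4.80 to 3.82 FPKM (-0.27 ± 0.049). Of 9 genes of proteins with a domain homologous to that of RGS proteins, 8 were tested: 3 were past the threshold toward higher values (Arhgef1 at 0.20, Akap10 at 0.18, Snx25 at 0.16), 1 toward lower (Snx13 at -0.21) and 4 were not. The untested Axin2 was at 0.590 FPKM in Grx2+/+ and 0.221 FPKM in Grx2-/- cells. Under either median-of-ratios or quantile scaling, none of the 3 was past it. Without Grx2+/+ replicate 1 the higher count was 1, and without Grx2+/+ replicate 1, 2 or 3 or Grx2-/- replicate 1 the lower count was 0.

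Of 13 effectors, 9 were tested, with 3 that rose, 2 that fell and 4 not past the threshold (median 0.052). The adenylyl cyclases Adcy2 (2.11 to 5.62 FPKM, 1.09 ± 0.089) and Adcy7 (5.71 to 11.3 FPKM, 0.88 ± 0.050) rose, and Adcy6 (8.61 to 6.40 FPKM, -0.38 ± 0.078) and the phospholipase Plcb3 (24.5 to 19.5 FPKM, -0.31 ± 0.034) fell. Of 63 listed receptors, 59 were in the table and 27 were tested, with 18 that rose, 5 that fell and 4 not past the threshold (median 0.65). Pth1r, the receptor of parathyroid hormone, fell from 53.1 ± 2.39 to 3.23 ± 0.333 FPKM (SD, n = 3, log2 fold change -3.68 ± 0.064, limma adjusted p = 6.84e-09). Parathyroid hormone is known to induce Rgs2 in bone cells, and a link between Pth1r and Rgs2 in these libraries was not tested. Adra1d, a Gq-coupled adrenergic receptor, rose from 1.46 to 15.6 FPKM (2.76 ± 0.047), Agtr1a, a Gq-coupled angiotensin receptor, from 0.555 to 5.24 FPKM (2.00 ± 0.074, and 3.24 by voom on the recovered reads, with a Grx2+/+ mean under the filter) and C3ar1, a receptor of the complement fragment C3a found on myeloid cells, from 28.8 to 59.2 FPKM (1.01 ± 0.036). Over all these lists, 78 genes were tested, of which 40 rose, 16 fell and 22 were not past the threshold, or 71.8% changed against 67.4% of all tested genes.

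**Figure D4:**
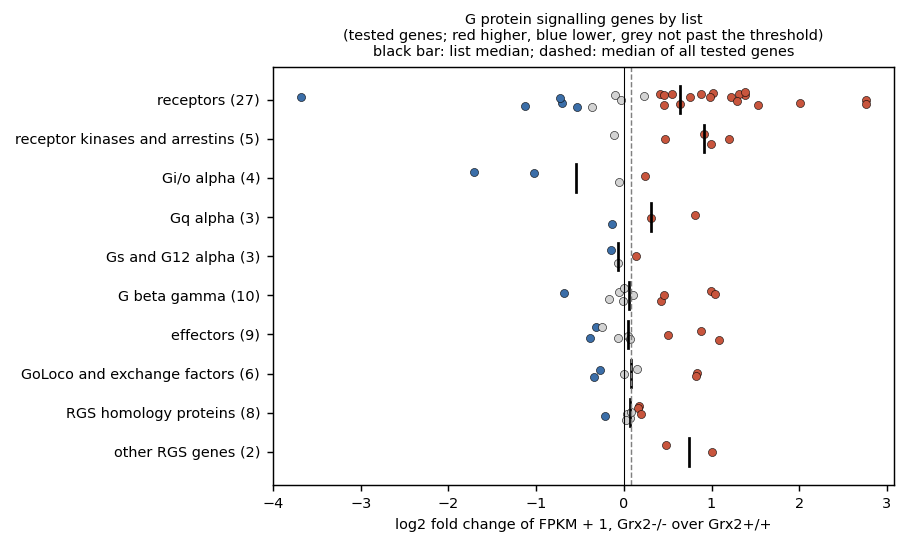
Log2 fold change of FPKM + 1, Grx2-/- over Grx2+/+, of every tested gene on 10 lists of G protein signalling, with the number tested in brackets. Red points were past the threshold toward higher values, blue points toward lower values and grey points were not past it; black bars are list medians and the dashed line is the median of all tested genes at 0.085. The receptor list is the widest, from -3.68 for Pth1r to 2.76, and the kinases and arrestins have the highest median of the lists with more than 2 genes, at 0.92.

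The place of Rgs2, Rgs1 and Rgs18 beside Glrx2 was compared with that of the other genes there, in RefSeq gene order of GRCm38.p6. From Glrx2 outward the genes in the table were Ro60, Uchl5, Rgs2, Rgs1 and Rgs18, and those on the other side included B3galt2, Cdc73 and Kcnt2. Of the 10 genes compared, 7 were tested. Ro60, the nearest, which encodes an RNA-binding autoantigen, fell from 7.71 to 3.83 FPKM (-0.86 ± 0.10, limma adjusted p = 0.00013), and Cdc73, a subunit of the PAF1 transcription complex, fell from 3.37 to 2.80 FPKM (-0.20 ± 0.049, adjusted p = 0.00715 by limma). Uchl5, a deubiquitinase that lies between Ro60 and Rgs2, was at 11.2 and 12.7 FPKM (0.17 ± 0.094, limma adjusted p = 0.144). Of the 4 tested neighbours outside the set, 0 rose and 2 fell, where 42.7% of all tested genes were higher and 24.6% lower. With so few genes, and with the RGS neighbours chosen by their difference, nothing is read from this count. Uchl5 was past the threshold toward higher values without Grx2-/- replicate 1 (0.25) and without Grx2+/+ replicate 2 and Grx2-/- replicate 1 together (0.33). Rgs4, Rgs5 and Rgs16 also lie on chromosome 1 but outside this stretch, and all of them were lower in Grx2-/- cells.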

How the data were processed

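The authors deposited 1 table of FPKM values with 1 column per library. The tools were HISAT2, HTSeq and R 3.2.0 and the build GRCm39, per the submitters' processing notes; annotation, filters, strand setting and the versions of the aligner and counter were not stated in the labels. All columns were matched to libraries by genotype and replicate number. FPKM values were integers times the value of a single read, and reads were recovered, for 22982 of 22984 genes (99.99%, within 1e-06 reads), which gave the depth; intervals from reads cover counting error only. The 11083 genes whose FPKM averaged at least 1 were fitted as log2(FPKM + 1) with limma 3.58.1 in R 4.3.3 (lmFit, eBayes with trend), Grx2-/- against Grx2+/+, two-sided, with Benjamini-Hochberg adjustment over all tested genes.

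The genes of the set and all lists were chosen with earlier results of these data known. Named outside the set are RGS genes that entered the fit, up to 4 genes of each list with the smallest p, tested neighbours of Glrx2 (some genes are not reported here) and, for each RGS gene, the genes with the most similar profile; Rgs8, Rgs11, Rgs7bp, Grk6, Gnai3, Gna12, Axin2, Grk1 and Grk4 were named after their values were seen. Alternatives were a pseudocount of 0.1, a minimum mean FPKM of 5 or none, scaling by median of ratios or by quantiles, an untrended limma prior, the replicate number as a block, voom on recovered reads, each library left out and, chosen after seeing the data, Grx2+/+ replicate 2 and Grx2-/- replicate 1 left out together. Figures were drawn with matplotlib 3.10.9. Without a stated strand setting, reads of antisense transcripts cannot be told apart.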

Additional observations from a re-analysis of the deposited data

How the results depend on the processing

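Of 132 refits of the 9 tested RGS genes, 124 kept their direction and side of the threshold, 8 lost the call (Rgs1, Rgs12 and Rgs19, given above) and none changed direction. Quantile normalization moved the median of all tested genes by -0.112, from 0.085 to -0.026, and median-of-ratios scaling to 0.0069. Counts of RGS genes past the threshold were 3 higher with quantile normalization and 2 lower with a mean FPKM of at least 5, where fewer genes were tested; with each library left out they were 4 to 5 higher and 3 to 4 lower. The cause of the other changes was not tested. Gna13 turned to -0.0029 with quantile normalization.

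With a mean FPKM of at least 5, counts were 0 higher for other RGS genes, 1 lower for GoLoco and exchange factors, 1 lower for Gi/o, 1 higher for Gq, 1 higher for effectors, 3 lower for receptors and 1 lower for the genes around Glrx2. With no filter they were 1 higher and 0 lower for R7 partners, 1 higher for RGS homology proteins, 4 lower for Gi/o, 2 higher for Gs and G12, 7 higher for beta and gamma subunits, 4 lower for effectors and 17 lower for receptors. With median-of-ratios scaling and with quantile normalization alike they were 0 higher for RGS homology proteins, 1 lower for receptor kinases and arrestins, 0 higher and 2 lower for Gs and G12, and 4 lower for beta and gamma subunits. By voom they were 0 lower for R7 partners and 2 lower for beta and gamma subunits, and without trend 2 lower for the latter. Without Grx2+/+ replicate 2 and Grx2-/- replicate 1 together they were 0 lower for R7 partners and 0 lower for RGS homology proteins. With 1 library left out, R7 partners ran from 0 to 1 lower, RGS homology proteins from 1 to 2 higher and 0 to 1 lower, receptor kinases and arrestins from 0 to 1 lower, and beta and gamma subunits from 1 to 2 lower.

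Same-numbered replicates deviated together with correlations of 0.107, 0.124 and 0.02, so the numbers were not taken as pairs; Grx2+/+ replicate 3 did not correlate best with its own number. With the replicate block the calls over all genes went from 7465 to 7562, R7 partners had 0 lower, and Uchl5 passed in limma (adjusted p = 0.0206). Genes under about 10 reads per library, such as Rgs6 and Rgs7, are limited by counting.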

Other observations

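For each RGS gene in the fit, the tested genes with the most similar profile were found by the root mean square difference of log2(FPKM + 1), centred on each gene's mean, over the 6 libraries. The profiles nearest to Rgs2 (1.20) were those of Cd109 (log2 fold change 1.19, difference 0.0295) and Lilrb4a (1.16, difference 0.0306), and those nearest to Rgs10 (0.93) were Ezr (0.91, difference 0.025) and Apobr (0.92, difference 0.0317). The profiles nearest to Rgs3 (-1.31) were those of Pdlim7 (-1.32, difference 0.0291) and Erfe (-1.36, difference 0.0462). Rgs16 (-0.69) was nearest to Abracl (-0.71, difference 0.037) and to Eif2s3y (-0.71, difference 0.0419), a gene of the Y chromosome. Rgs18 (0.48) was nearest to Cdc20 (0.51, difference 0.0228) and Ogn (0.51, difference 0.0382). With 6 libraries in 2 groups, such likeness is set mainly by the difference between the genotypes.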
